A study of Homo sapiens with 6 samples.

Results

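Lactylation of histone H4 at lysine 5 (H4K5la) formed 451 broad domains in the interior of the autosomes of untreated hepatocellular carcinoma cells. These domains were selected on the widths of the control peaks. Peaks of 4 libraries that shared at least 1 bp were merged into 71122 regions. A region was kept when each control library had exactly 1 peak in it, both of these peaks were at least 2000 bp wide, and the region lay over 5 Mb from either end of an autosome. Control peak widths were therefore part of the choice, and they are given as a description with no test. The cells were PLC/PRF/5, an established human liver cancer line. Chromatin was immunoprecipitated with an antibody to H4K5la from control cells, with no lactate addition named, and from cells kept with 20 mM lactate for 24 h. Each condition had 2 libraries with a peak list, numbered 2 and 3 in the labels (control 2, control 3, lactate 2 and lactate 3), and 1 input library made without antibody. Nothing in the labels says that the 2 libraries of a condition came from separate cultures, so the spread between them may be technical, and all values come from 1 cell line.

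Lysine lactylation is the addition of a lactyl group, for which lactate is the source, to lysines of histones and other proteins. Acyl marks on the tail of histone H4, the best known of which is acetylation, neutralise the charge of the lysine and are generally found on open chromatin. Most called ChIP-seq peaks of such marks cover a few nucleosomes, whereas a broad domain is an unbroken called stretch over many of them. H4K5la in liver cancer cells was studied here in relation to glycolysis, the pathway whose end product in fast-growing tumour cells is lactate.

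Where a domain lay over a promoter, the lactate peaks kept some promoter windows and left others. The sequences below are RefSeq promoter windows (GRCh38.p14, 250 bases before to 50 bases after an annotated start, printed 5′ to 3′ on the gene's strand). They were picked after the values were seen, because they show both outcomes. The letters in capitals are GC boxes, here CCGCCC or GGGCGG, the core of the sites bound by SP and KLF zinc finger factors. The domain in PTPN7, a phosphatase gene of blood cells on chromosome 1, held 3 windows wholly under both control peaks. The window farthest upstream (chr1:202160553-202160852, minus strand) was covered over all 300 bases in both lactate libraries.
PTPN7 window kept: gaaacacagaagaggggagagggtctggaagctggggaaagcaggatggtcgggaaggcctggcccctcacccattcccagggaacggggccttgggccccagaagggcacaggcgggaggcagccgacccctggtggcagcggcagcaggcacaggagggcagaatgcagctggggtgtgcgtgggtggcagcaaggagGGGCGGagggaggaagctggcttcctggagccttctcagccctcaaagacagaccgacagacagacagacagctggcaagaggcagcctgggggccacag
The next window of PTPN7 (chr1:202159940-202160239, minus strand) had 0 bases under a peak in either lactate library.
PTPN7 second window: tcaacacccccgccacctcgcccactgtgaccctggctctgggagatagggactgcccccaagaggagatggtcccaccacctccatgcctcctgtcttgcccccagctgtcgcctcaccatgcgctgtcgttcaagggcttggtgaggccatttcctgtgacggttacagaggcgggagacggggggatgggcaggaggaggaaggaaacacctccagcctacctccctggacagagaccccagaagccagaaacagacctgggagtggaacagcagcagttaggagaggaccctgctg
The window farthest downstream (chr1:202159405-202159704, minus strand) also had 0 bases under a peak in either lactate library.
PTPN7 downstream window: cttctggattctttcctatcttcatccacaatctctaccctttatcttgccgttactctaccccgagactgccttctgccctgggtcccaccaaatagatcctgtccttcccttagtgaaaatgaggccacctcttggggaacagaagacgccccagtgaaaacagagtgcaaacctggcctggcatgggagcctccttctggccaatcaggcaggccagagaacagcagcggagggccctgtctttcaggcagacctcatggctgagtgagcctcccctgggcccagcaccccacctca
The start of INPP5D, which encodes the inositol phosphatase SHIP1 (chr2:233060092-233060391, plus strand), was wholly covered in all 4 libraries.
INPP5D window: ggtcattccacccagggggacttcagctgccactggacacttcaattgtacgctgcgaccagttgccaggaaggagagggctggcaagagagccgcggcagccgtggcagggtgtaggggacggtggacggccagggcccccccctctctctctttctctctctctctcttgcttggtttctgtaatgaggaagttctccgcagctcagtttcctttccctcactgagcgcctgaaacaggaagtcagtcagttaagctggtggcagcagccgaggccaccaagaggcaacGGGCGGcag
The start of NPY, which encodes neuropeptide Y (chr7:24283940-24284239, plus strand), was wholly covered in both control libraries and had 0 bases covered in both lactate libraries.
NPY window: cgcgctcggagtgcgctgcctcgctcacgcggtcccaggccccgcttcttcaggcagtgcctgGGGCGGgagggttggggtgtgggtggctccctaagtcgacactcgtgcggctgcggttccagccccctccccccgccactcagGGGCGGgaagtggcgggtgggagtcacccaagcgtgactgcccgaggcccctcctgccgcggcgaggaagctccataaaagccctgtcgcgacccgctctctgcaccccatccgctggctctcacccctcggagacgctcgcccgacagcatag

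The kept PTPN7 window held 1 GC box and the other PTPN7 windows held 0. INPP5D, covered in all 4 libraries, held 1, and NPY, uncovered in both lactate libraries, held 2. NPY also had 29 CpG dinucleotides, against 12 in INPP5D and 4 to 8 in the 3 PTPN7 windows. In all, 36 windows lay wholly under both control peaks, and 19 of them belonged to 17 coding genes. Lactate peaks covered 16 of the 36 wholly in both libraries, covered none of 7, and covered 13 in part or in 1 library only. A GC box, searched on both strands, was present in 50% of the 36 windows and in 45.0% of all 33725 autosomal promoter windows of the same length. By outcome, it was present in 50% of the 16 windows kept in both lactate libraries, in 69.2% of the 13 kept in part or in 1 library, and in 14.3% of the 7 under no lactate peak, that is, in the NPY window alone. The median GC content of the 36 windows was 64.0%, against 58.7% over all windows, and their median CpG count was 10 against 14. The E box CACGTG, a site of MYC-type factors, was present in 2.78% of the 36 windows and in 7.18% of all. The letters TGTTTNC, which resemble forkhead factor sites, were present in 22.2% and 18.0%. These matches describe letters in a window and do not show a bound factor.

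The domains also covered microRNA hairpins. The mature sequences are printed from RefSeq, with the seed (bases 2 to 8), which pairs with target messages, in capitals. The hairpin of MIR142, a microRNA of blood cells (chr17:58331232-58331318, minus strand), and that of MIR199A1, which lies within the dynamin gene DNM2 (chr19:10817426-10817496, minus strand), were wholly under a peak in all 4 libraries. The hairpin of MIR6771 in ADCY7 (chr16:50292616-50292675, plus strand) was wholly covered in both control libraries and had 0 bases covered in both lactate libraries.
hsa-miR-142-5p: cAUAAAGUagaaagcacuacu
hsa-miR-142-3p: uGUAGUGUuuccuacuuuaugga
hsa-miR-199a-5p: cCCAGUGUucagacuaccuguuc
hsa-miR-199a-3p: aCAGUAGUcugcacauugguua
hsa-miR-6771-5p: cUCGGGAGggcaugggccaggc

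The other hairpins touched were MIR1228 in LRP1, covered in both control libraries and in lactate 2 but not in lactate 3, and MIR3127, of which 8 bases lay under the peak of control 3. Peak lists do not measure whether a microRNA is made.

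Lactate-treated cells kept H4K5la peaks in nearly all domains, but in pieces whose bases summed to about 0.497 of the control bases. Peaks covered 1295 kb of the domains in control 2, 1293 kb in control 3, 630.7 kb in lactate 2 and 655.6 kb in lactate 3. The control mean was 1294 kb ± 1.71 (SD, n = 2) and the lactate mean was 643.1 kb ± 17.6 (SD, n = 2). Since each control value is the summed width that chose the domains, this separation is a description. A peak was present in 424 domains (94.0%) in lactate 2 and in 437 (96.9%) in lactate 3. Both lactate libraries had a peak in 420 of the 451 domains (93.1%), 21 domains had one in 1 lactate library only, and 10 had none. Among the 38825 regions with a peak in both control libraries, a lactate peak in both libraries was found in 52.8%, a background made mostly of narrower regions, which offer fewer bases to overlap. Covered bases were lower in both lactate libraries than in both control libraries in 441 domains (97.8%), against 69.5% of those 38825 regions. Since control width chose the domains, that share is a description.

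The ratio of lactate to control covered bases in the domains was close to that of other regions. It sums all lactate peak bases in a region, also those outside the control peaks. The ratio of lactate to control covered bases was 0.491 in the 910 regions that met the same width rule within 5 Mb of a chromosome end, 0.511 in 23731 interior regions with narrower single control peaks, and 0.494 over all regions with a peak in both control libraries. A peak in both lactate libraries was present in 48.0% of the interior narrow regions. In 3000 of these regions lactate bases exceeded control bases, against 3 of the 451 domains. On the log2 scale, interior minus outer covered bases were -1.22 in both control libraries, -1.20 in lactate 2 and -1.21 in lactate 3. The lactate mean was higher than the control mean by 0.02 on the log2 scale. Control widths chose both sets, so this is given with no test. Choosing regions on 1 control library and reading the other gave ratios of 0.507 (848 regions chosen on control 2) and 0.501 (744 regions chosen on control 3). In those sets the control library that was not used for the choice covered 0.904 and 0.929 of the bases of the one that was. The mirrored rule, applied to the lactate libraries, found only 22 regions, in which lactate peaks covered 51.6 and 53.0 kb and control peaks 57.6 and 57.0 kb.

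**Figure D1:**
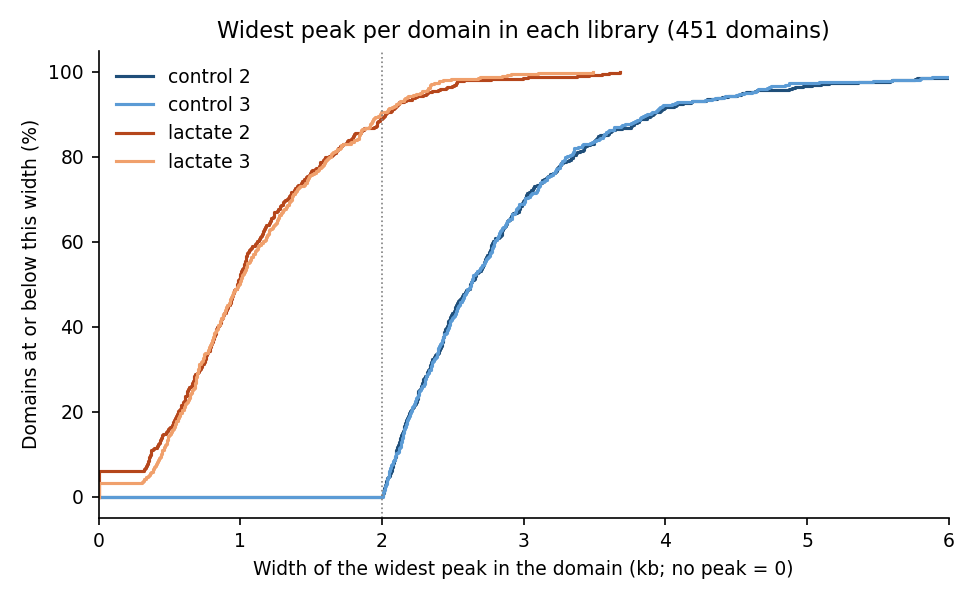
Share of the 451 domains (vertical axis, percent) whose widest peak is at or below a given width (horizontal axis, kb), 1 line per library, with domains lacking a peak at 0. Both control curves start at the 2000 bp limit by choice (dotted line), whereas all but 50 (lactate 2) and 43 (lactate 3) domains lie below it after lactate, with medians of 1007 and 1009 bp.

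Widths were alike within a condition. The median width of the control peaks was 2624 bp in control 2 and 2628 bp in control 3, with maxima of 11370 and 11457 bp. The widest lactate peak in a domain had a median of 1007 bp in lactate 2 and 1009 bp in lactate 3, with maxima of 3682 and 3490 bp. It still reached 2000 bp in 50 domains (11.1%) in lactate 2 and in 43 (9.53%) in lactate 3, and in 21 domains (4.66%) in both. The plot of widest peaks shows the lactate curves lying together, left of the control curves. Over the domains, the median share kept was 50.2%, with an interquartile range of 34.5 to 67.1%. A kept share is the lactate bases over the control bases of a domain, counted anywhere in the merged region. Within the stretch under both control peaks, lactate peaks covered 49.3% (lactate 2) and 51.2% (lactate 3). Only 3 domains were covered over more bases after lactate than before, the most being 110.7%.

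Many domains held several separate peaks after lactate. Lactate 2 had 1 peak in 225 domains, 2 peaks in 158, 3 in 32, 4 in 5 and 5 in 4. Lactate 3 had 1 peak in 208 domains, 2 in 174, 3 in 48, 4 in 6 and 5 in 1. At least 2 peaks stood in both lactate libraries in 150 domains (33.3%), and both libraries had the same number of peaks in 265 (58.8%). Wider domains held more pieces. The 216 domains of 2000 to 2500 bp had 1.26 and 1.31 peaks in the lactate libraries, and the 33 domains of at least 4000 bp had 2.82 and 2.94. All 33 of the widest class had a peak in both lactate libraries, against 90.3% of the narrowest class. Kept shares were 51.1% at 2000 to 2500 bp, 55.1% at 2500 to 3000 bp, 45.7% at 3000 to 4000 bp and 46.7% above.

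Lactate peaks were spread evenly over the domains. In the stretch under both control peaks, cut into 3 equal parts, lactate 2 placed 32.5, 34.2 and 33.3% of its bases in the left, middle and right parts, and lactate 3 placed 32, 34.7 and 33.3%. Coverage was lowest in the outermost of 20 bins, at 35.6 and 36.3% on the left and 33.2 and 35.7% on the right, against 50.1 and 54.1% in bin 10. In lactate 2 the bins next to the ends were also lower than the inner ones, at 49.4 and 47.1%. The median distance between the outer edge of the control stretch and the first lactate peak was 135 to 176.5 bp, less than a fragment length. Inside the domains, 253 gaps in lactate 2 and 292 in lactate 3 separated the pieces, with median lengths of 555 and 548 bp. The lactate libraries shared 63.1% of the bases that either of them covered, which was 78.9% of lactate 2 and 75.9% of lactate 3. A lactate peak lay over the summit of at least 1 control library in 363 domains (85.6% of those with a peak) in lactate 2 and in 389 (89.0%) in lactate 3. The control summits themselves moved within a domain. They lay within 300 bp of each other in 178 domains (39.5%), with a median distance of 535 bp.

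**Figure D2:**
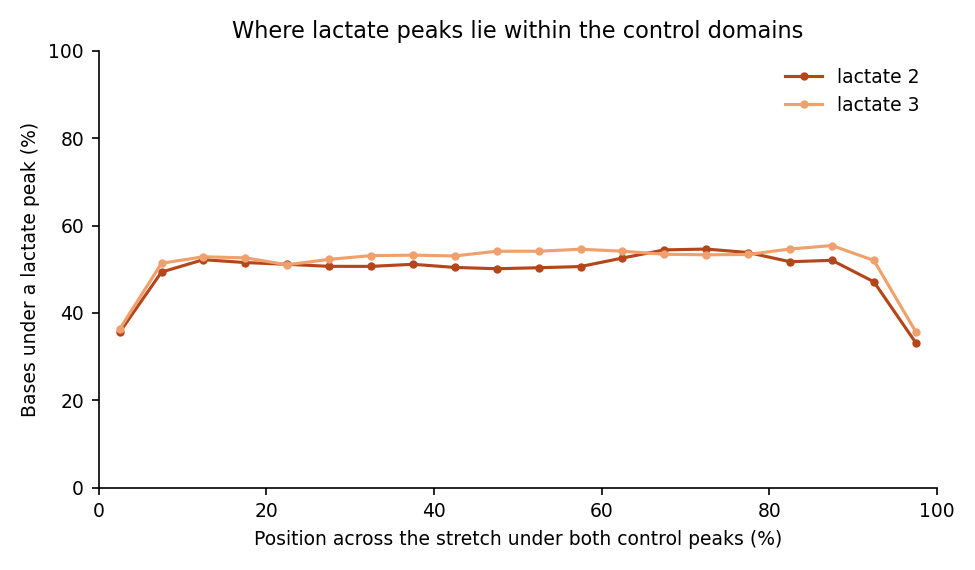
Bases under a lactate peak (vertical axis, percent) at each of 20 equal bins across the stretch under both control peaks (horizontal axis, percent of its length), averaged over the 451 domains, 1 line per lactate library. Coverage is 50.1 and 54.1% in bin 10 and lowest in the end bins, at 35.6 and 36.3% on the left and 33.2 and 35.7% on the right.

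Where a peak was called, reads at the domain summits were not lower after lactate. The 27 domains without a peak in lactate 2 and the 14 in lactate 3 have no value here. The deposited fold enrichment and p-value of each peak allowed the whole reads at its summit and the local background expected from the input to be worked out. Of the summits, 100% came out at whole reads within a tolerance of 0.001. After scaling to the depth of control 2, the strongest summit of a domain had a median of 31.0 reads in control 2, 33.0 in control 3, 35.6 in lactate 2 and 36.1 in lactate 3. The median local background at these summits was 1.08 reads in control 2, 1.11 in control 3, 2.2 in lactate 2 and 2.0 in lactate 3. The authors' fold enrichment, which divides signal by background, had medians of 9.74, 10.6, 7.20 and 7.60 in the same order. Within its own library, the median domain ranked in the top 16.5 and 15.7% by fold in the control lists and in the top 49.6 and 45.4% in the lactate lists.

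Summits that stood at the same place in a control and a lactate library showed the same. With summits within 100 bp of each other, the 4 control-lactate pairs of libraries had 140 to 178 of them. The median ratio of lactate to control reads was 1.11, 1.10, 1.05 and 1.06, and the background was higher in lactate at 70.7 to 80.7% of them. A peak had to be called in both libraries, so summits that were no longer called after lactate are left out. Chosen in the same way, summits of interior narrow regions had ratios of 1.123, 1.128, 1.025 and 1.026, so these ratios are not particular to the domains. At the shared summits of the domains, fold enrichment had medians of 10.1 to 11.1 in control and 6.81 to 7.22 in lactate. The labels list 1 input for each condition, and which input a list was called against is not given in the sources used here. The recovered relative input depth was 1.0 in both control lists, and 0.958 and 0.959 in the lactate lists. Over all peaks in domains, the median background in lactate exceeded that in interior narrow regions by 1.33 (lactate 2) and 1.09 (lactate 3) on the log2 scale, against 0.11 and 0.15 in the control libraries. That is a difference of 1.08 on the log2 scale. The width that chose the domains was called against the same control background, so this is given with no test. Over all peaks of the outer broad regions, the median background was 3.52 and 3.53 in the lactate libraries and 1.40 and 1.43 in control. In the interior narrow regions the median was 1.0 in all 4 libraries.

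**Figure D3:**
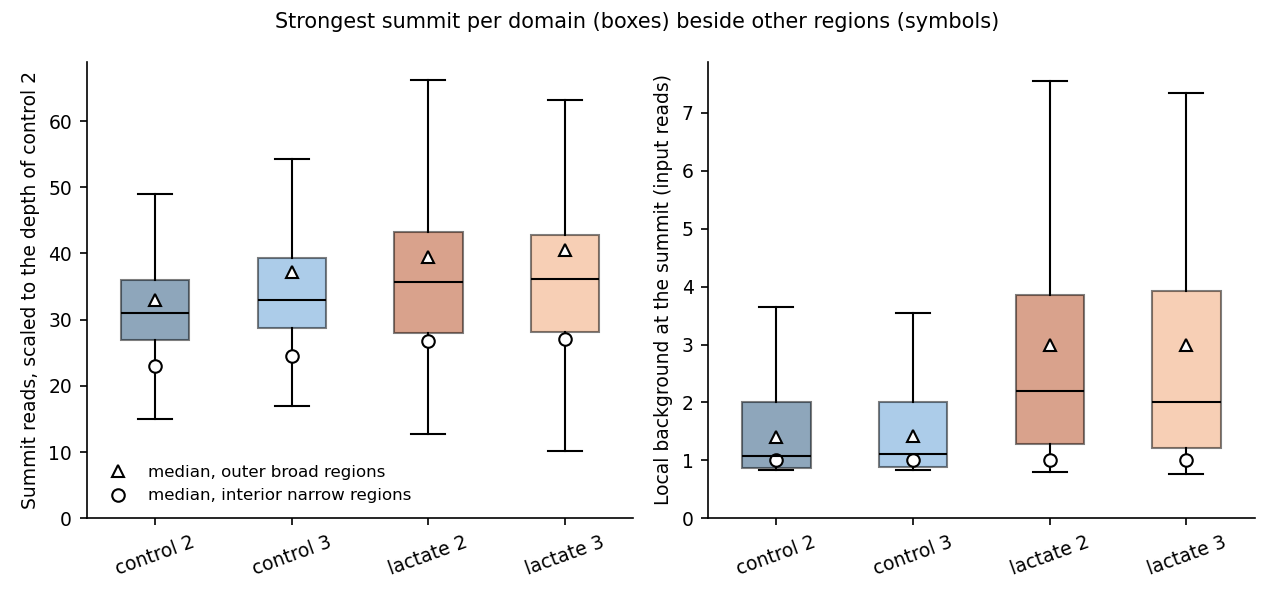
Left, reads at the strongest summit of each domain, scaled to the depth of control 2. Right, local background at that summit in input reads. Boxes give the quartiles and median over domains with a peak in each of the 4 libraries, whiskers reach 1.5 times the interquartile range, and symbols are medians of other regions; reads are similar or higher after lactate, and background at broad regions is higher.

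A higher background raises the number of reads that a called peak needs. At a background of 1, the lowest summit in a list had 8.91 to 9.58 depth-scaled reads, and at a background of 3 it had 16 to 16.9. Domains with a mean lactate background under 1.5 kept a median of 56.7% of their bases (117 domains), those between 1.5 and 2.5 kept 53.1% (133 domains), and those at 2.5 or more kept 45.0% (191 domains). The 10 domains without a lactate peak have no such background and are left out. The 21 with a peak in 1 lactate library only are placed by that library. The part of the background in the narrower lactate peaks was not tested. The libraries also differed in depth, at 0.940 (control 3), 0.786 (lactate 2) and 0.887 (lactate 3) of control 2, and in called peaks, at 52215, 52959, 37951 and 38402, and the part of depth was not tested either.

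The widest domain lay in BIN1, which encodes a membrane-bending adaptor of the amphiphysin family (chr2:127047809-127059300). Its peak measured 11370 bp in control 2 and 11457 bp in control 3. Lactate 2 and lactate 3 each had 5 peaks there, the widest of 2033 and 1915 bp, and together they covered 5084 and 5174 bp, or 44.9% of the control bases. Summit reads were 37.0, 42.6, 50.9 and 68.8 in control 2, control 3, lactate 2 and lactate 3, each at the strongest summit of the domain. Fold enrichment at these summits was 6.76, 14.4, 6.94 and 9.0, and background was 3.0, 1.14, 4.09 and 4.27. A second domain in BIN1 (chr2:127088812-127091374) kept 20.7%, with peaks of 2563 and 2033 bp in control and 488 and 461 bp after lactate.

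**Figure D4:**
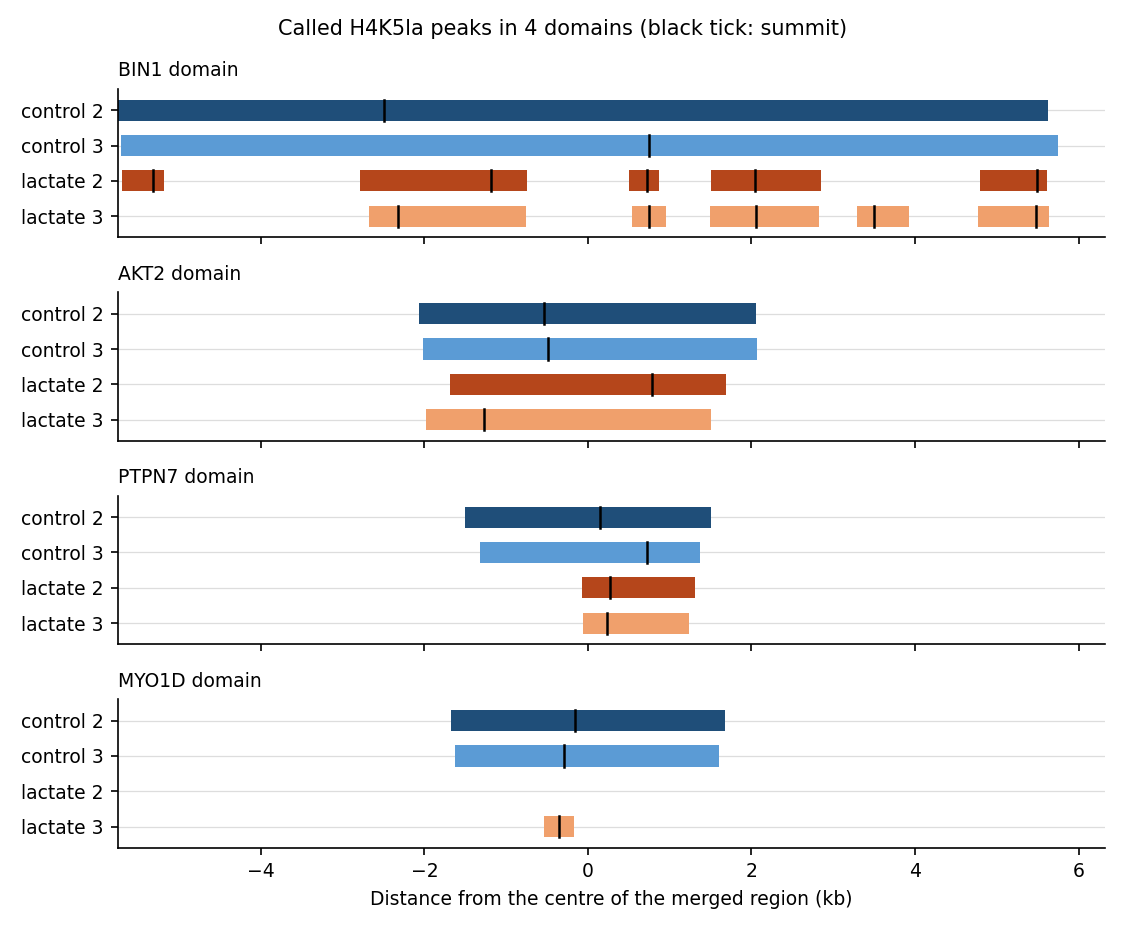
Called peaks (bars) and their summits (black ticks) in the 4 libraries across the domains in BIN1, AKT2, PTPN7 and MYO1D, by distance from the centre of the merged region (horizontal axis, kb). BIN1 breaks into 5 pieces in each lactate library, AKT2 stays whole, PTPN7 keeps its right side and MYO1D keeps 1 peak of 361 bp in lactate 3 only.

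The next widest domains followed the same form. The domain spanning PRMT7 and SMPD3, an arginine methyltransferase and a sphingomyelinase gene (chr16:68354403-68362005), measured 7241 and 7603 bp in control, and its 5 and 4 pieces after lactate were no wider than 1330 and 876 bp. In EXOC7, an exocyst subunit gene (chr17:76085099-76091899), control peaks of 6801 and 6732 bp gave way to widest peaks of 1037 and 1356 bp. In CAMK2B, a calcium/calmodulin kinase gene (chr7:44215508-44221928), 6335 and 6226 bp became 1073 and 1125 bp. These 3 domains kept 39.5, 52.4 and 42.5% of their control bases, and no unbroken stretch in them exceeded 1356 bp after lactate.

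Among the rest of the 15 widest domains, kept shares ran from 21.2 to 62.0%. The lowest was in KDM4B, an H3K9 demethylase gene (chr19:5126291-5131413), with 5100 and 4873 bp in control and 826 and 776 bp after lactate. The highest spanned UNC13D and WBP2 (chr17:75842334-75848154). Others were in AP1M1, a clathrin adaptor subunit (59.8% kept), TXNRD2, the mitochondrial thioredoxin reductase (32.9%), CRTC1, a coactivator of CREB (49.0%), TMEM201, an inner nuclear membrane protein (42.5%), LSM4, a splicing factor (39.8%), GTF3C1, a subunit of the RNA polymerase III factor TFIIIC (34.7%), and GRK2, a receptor kinase (47.9%), and near GP1BB on chromosome 22 (46.7%). All 15 had a peak in both lactate libraries.

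Some wide domains remained almost whole. The domain in AKT2, a kinase of insulin signalling (chr19:40232546-40236678), was 4123 and 4081 bp in control and 3373 and 3490 bp after lactate, as 1 peak in every library. Summit reads there were 37.0, 42.6, 54.7 and 50.8, while background was 1.11, 1.08, 3.46 and 4.0. Both are read at the strongest summit only, and their part in the width was not tested. The domain over the end of CHD2, a chromatin remodeller gene (chr15:93027459-93031421), lay mostly beyond the gene, which ends at 93027996. Its 3779 and 3963 bp became 3604 and 2850 bp, and lactate background was low at 0.795 and 0.770. Further wide domains that kept most were in COPE, a coat protein subunit (94.7%), a further domain in CRTC1 (86.1%) and SLC38A12 (84.8%).

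The 21 domains that reached 2000 bp in all 4 libraries were named after their values were seen. In GALNT2, which encodes an enzyme that starts O-linked glycans (chr1:230279120-230281881), widths were 2708, 2727, 2669 and 2678 bp in control 2, control 3, lactate 2 and lactate 3, or 98.4% kept. In PLXND1, a semaphorin receptor gene (chr3:129555023-129557528), they were 2506, 2390, 2312 and 2282 bp. In PRKAG2, a subunit of the energy sensor AMPK (chr7:151727305-151729967), they were 2663, 2537, 2023 and 2427 bp. A further domain of CRTC1 (chr19:18708485-18710601) had 2006, 2024, 2099 and 2038 bp, and thus covered slightly more after lactate. The same gene HS6ST1 held one that stayed broad (3619, 3352, 2116 and 2102 bp) and one that kept 16%. The rest lay in ADCY7, OVOL1, MGAT5B, SIL1, ARMC9, HID1, TMEM161A, ADAMTSL4 and SPTBN5 and near SOX7 and MBOAT2, beside those already named. These 21 had median backgrounds of 1.65, 1.71, 2.0 and 2.0 and median summit reads of 36, 38.3, 43.3 and 42.9, against backgrounds of 1.08, 1.08, 2.2 and 2.0 and reads of 31, 33, 35.6 and 35 in the other 430. TMEM161A had the highest background of these 21, at 25 and 23 reads in the lactate libraries and 7.17 and 7.0 in control, and kept 94.8% of its bases. Its summit reads were also far above these medians, at 101 and 96.8 in control and 136.2 and 138.7 in the lactate libraries.

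Other wide domains lost nearly all of their called bases. In MYO1D, an unconventional myosin gene (chr17:32493473-32496820), peaks of 3348 and 3229 bp left 0 bp in lactate 2 and 361 bp in lactate 3. The domain nearest to HMX1, a homeobox gene (chr4:8779274-8782531), went from 3231 and 3256 bp to 0 and 347 bp. In HS6ST1, a heparan sulfate sulfotransferase gene (chr2:128304109-128307613), 3495 and 3210 bp became 660 and 412 bp. A further domain in KDM4B (chr19:5132608-5136034) kept 13.3% and one on chromosome 16 (chr16:35746342-35750243) kept 11.8%.

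The 10 domains with no lactate peak included both domains of KDM6B, which encodes an H3K27 demethylase. The first (chr17:7842420-7844897) was 2463 and 2396 bp wide in control with 15 and 26.6 summit reads, and the second (chr17:7846194-7849450) was 2353 and 3219 bp wide with 19.0 and 35.1. The other 8 lay in SLC4A2, RANBP3 and CAPS, YIF1B and C19orf33, A4GALT, CHST15, MCAM, PPFIA3 and CYP26B1. These genes encode among others an anion exchanger (SLC4A2), a glycosyltransferase (A4GALT), a cell adhesion molecule (MCAM) and an enzyme that clears retinoic acid (CYP26B1). Their narrower control width was at most 2772 bp, so none was among the widest. Their summit reads in control 2 ran from 15 (KDM6B) to 37 (PPFIA3), and 8 of the 10 lay below the median of 31 reads over all domains. Control 3 did not show this as clearly. Its depth-scaled reads ran from 21.3 (CHST15) to 42.6 (PPFIA3), on both sides of its median of 33.0.

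By fold enrichment after lactate, the 6 best ranked domains overlapped CHD2, URGCP, ASIC2 and INPP5D or lay near TSPOAP1 and CEBPB. The domain near TSPOAP1 (chr17:58330539-58333638), which holds MIR142, had peaks of 2987, 2548, 3028 and 3100 bp in control 2, control 3, lactate 2 and lactate 3, the last 2 being the widest. INPP5D (chr2:233058683-233060714) had 2026, 2032, 1984 and 1987 bp in the same order and kept 97.9%. The domain 89089 bp from CEBPB, a liver and inflammation transcription factor gene (chr20:50281779-50286865), kept 74.0% of its bases in 2 and 4 pieces. ASIC2, an ion channel gene, kept 35.8%, so a strong summit did not go with a whole domain there.

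The width limit cut through a continuous range. Just inside it were a domain in WNT16, a Wnt ligand (2000 and 2008 bp in control, 811 and 1228 bp after lactate) and one in NDUFA11, a complex I subunit (2121 and 2004 bp, then 1138 and 794 bp). Just outside it were a region over CHERP and C19orf44 (1999 and 2073 bp, then 490 and 662 bp) and one whose nearest coding gene was ALG10 (1999 and 2043 bp, then 892 and 347 bp).

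Most domains lay inside genes and away from starts. A coding gene was overlapped by 381 domains (84.5%), 23 overlapped at least 2, and 70 overlapped none. The midpoint lay in a coding gene for 82.5% of the domains, against 68.9% of the outer broad regions and 67.2% of the interior narrow regions. It lay within 1 kb of a coding start for 3.62% of the 442 domains on chromosomes with promoter entries, against 2.80% and 6.44%. Of 298 midpoints in genes with a known strand, 63.1% were in the last of 3 equal parts of the gene and 11.4% in the first, against 46.2 and 19.8% for outer broad regions and 45.1 and 25.9% for interior narrow regions. These are counts over regions that share genes and neighbours, and no test was made of them.

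Some genes held several domains. The 451 domains touched 314 coding genes, of which 50 held at least 2 and 23 at least 3. KDM4B, PEPD, IQSEC1 and GSE1 held 5 each. Over its 5 domains KDM4B kept 27.3% of control bases, with 17947 and 18145 bp in the control libraries and 4550 and 5293 bp after lactate. PEPD, the proline dipeptidase gene, kept 62.1%, with 16509 and 16074 bp before and 10803 and 9440 bp after. IQSEC1, an activator of ARF GTPases, kept 57.7% and GSE1 60.2%. CAMK2B, TXNRD2 and CRTC1 held 4 each and kept 43.7, 46.7 and 69.7%. Domains of 1 gene thus kept between 27.3 and 69.7% in these 7 genes.

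Domains clustered along the chromosomes. Chromosome 19 held 56 (11.5 per 10 Mb of interior), chromosome 22 held 40 (9.80), chromosome 17 held 31 (4.23) and chromosome 11 held 51 (4.08). Chromosomes 13 and 18 held 1 each. Domains were also read as a share of the interior regions with a peak in both control libraries. They made up 3.38% on chromosome 19, 3.30% on chromosome 22, 3.11% on chromosome 4, 2.77% on chromosome 11 and 2.08% on chromosome 17. On chromosomes 13 and 18 they made up 0.516 and 0.228%. Chromosomes stood closer together by this measure than by density, but shares still ran from 0.228 to 3.38%. Another domain lay within 1 Mb of 375 domains (83.1%), and 22 groups of at least 5 domains held 226. The group with most members was on chromosome 11 between 64017513 and 72704662, with 36 domains in and around SHANK2, MACROD1, GRK2 and TPCN2, and it kept 49.0% of its bases. On chromosome 22, 19 domains lay within 0.575 Mb around TXNRD2 and GNB1L, and kept 41.6%. GNB1L itself kept 17.4% over 3 domains. A group of 16 on chromosome 19 around CRTC1 and ELL kept 63.9%, and a group of 13 on the same chromosome around KDM4B kept 29.8%. Kept shares thus differed between groups of domains on 1 chromosome.

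**Figure D5:**
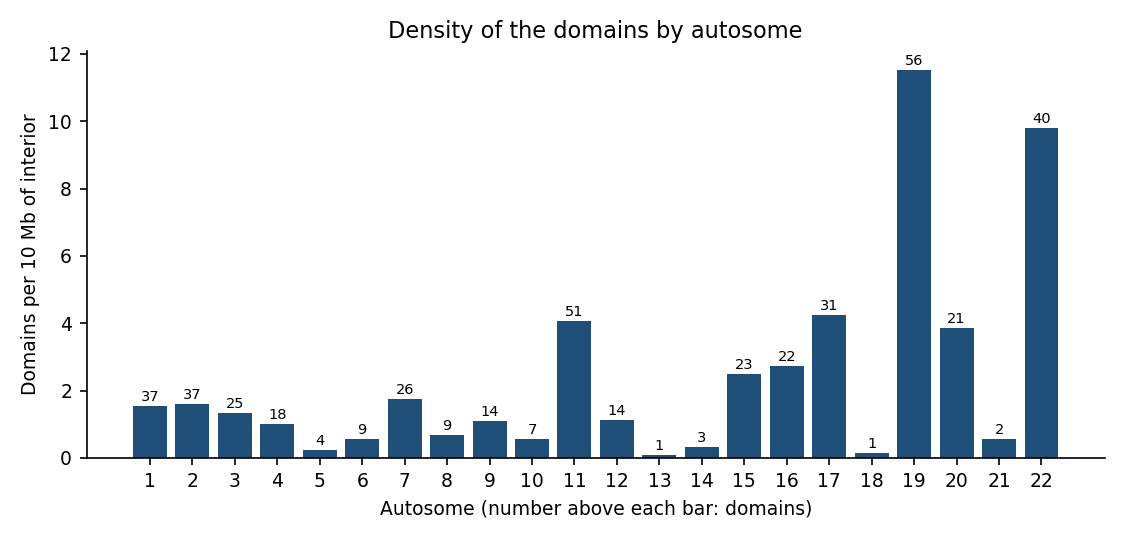
Domains per 10 Mb of autosome interior (vertical axis; bars start at 0) for each autosome (horizontal axis), with the number of domains above each bar. Chromosomes 19 and 22 stand highest at 11.5 and 9.80, and chromosome 13 holds 1 domain.

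Broad regions were a smaller share of regions away from the chromosome ends. Of the regions with a peak in both control libraries, 7.06% met the width rule within 5 Mb of an end, 2.62% at 5 to 10 Mb, 1.94% at 10 to 20 Mb, 1.21% at 20 to 40 Mb and 1.59% beyond. The outer 5 Mb held 66.9% of the 1361 broad autosomal regions and 33.4% of all regions with a peak in both control libraries. The ratio of lactate to control bases ran from 0.472 to 0.545 over these distance classes and did not follow the distance.

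Gene lists were read against the 1.89% of 16605 interior coding genes that held a domain, that is, overlapped one by at least 1 bp. In the histone methylation and remodelling list, KDM6B and the helicase genes SMARCA4 and CHD2 held one, and the domain in SMARCA4 kept 50.6%. Of the actin and adhesion adaptor list 5 of 25 did, namely BIN1, MYO1D, BIN3, the myosin gene MYH9 and the actin crosslinker gene ACTN4. ACTN4 (chr19:38718742-38720932) kept 90.8%, with 2082, 2096, 1945 and 1847 bp in control 2, control 3, lactate 2 and lactate 3, and its background was 0.889, 0.836, 7.0 and 7.0. It was named after its values were seen. MYH9 kept 71.2% and BIN3 33.5%. These lists were drawn up with earlier results of these data known, so their counts are no independent evidence.

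In the glycolysis list, PFKFB3, which makes the activator of phosphofructokinase (chr10:6220615-6223654), had peaks of 2514 and 3010 bp in control and 2456 and 1928 bp after lactate, or 79.4% of its control bases. Its summit reads were 30.0, 31.9, 30.6 and 29.3. None of 16 glucose and lactate transport genes held a domain. Of the acyl mark writers and erasers, 1 of 19 did, KAT8, an H4 acetyltransferase gene, at 39.4% kept.

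Other lists held 2 genes with a domain, 1 or none, so their shares rest on very few genes. In lipid synthesis 2 of 19 (10.5%) held a domain, against 1.89% of all interior coding genes. They were PEMT (2 domains, 36.7 and 62.8% kept) and MLXIPL, the gene of the carbohydrate sensor ChREBP (48.5%). In insulin and mTOR signalling 2 of 18 (11.1%) did, AKT2 and PIK3CD (43.5% kept). In Wnt and Hippo signalling 1 of 24 (4.17%) did, LRP5, a Wnt co-receptor gene (22.8% kept). No domain touched the liver transcription factor list (0 of 21), plasma proteins (0 of 25), TGF beta signalling (0 of 21), liver cancer drivers (0 of 19) or cytosolic ribosomal proteins (0 of 29). At a share of 1.89%, lists this short can hold none, so these counts show no lack of domains. The stromal list had 0 of 19 and the blood cell list 1 of 16, SPI1, which encodes PU.1. Of the cell type markers, none of 11 hepatocyte, 5 blood or 5 stromal and endothelial genes lay under a domain, so the domains give no check of the cell type.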

How the data were processed

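H4K5la ChIP-seq peaks of PLC/PRF/5 cells were analysed in 2 control and 2 lactate libraries. Versions named in the submitters' processing notes are MACS2 2.2.6, Bowtie2 2.3.4.2, Picard 2.18.11, SAMtools 1.9, Trimmomatic 0.38 and FastQC 0.11.7, with build hg38. Per the labels' protocols, duplicates were removed. The authors deposited 1 peak list per library, with positions and with a score, a fold enrichment (a ratio), a −log10 p and a −log10 q per peak. The calling settings are not given in the sources used here. Fold and −log10 p were solved for the reads and local background at each summit (MACS2's Poisson formula, tested on simulated data). The lists hold no library totals, so depth is relative to control 2. Shares of domains are counts over regions that are often neighbours, so they are given with no interval.

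Genes came from RefSeq GRCh38.p14 by overlap of at least 1 bp, and its promoter table held an entry for 15843 of 20056 coding genes. Named were the 15 widest domains, the 5 most and 5 least kept of those in the top 25% by width, the 6 best ranked after lactate, up to 4 genes of each of 16 lists, 2 domains inside and 2 regions outside the width limit, and 8 genes with several domains. Others were named after their values were seen. Some items that the rule names are not reported here. The domains and lists were chosen with earlier results of these data known. Differences between conditions were computed for an exact permutation test over the 6 assignments of 4 libraries, whose smallest p is 0.333, and are given with no test because control widths chose the domains. Alternatives varied the q threshold, width and end limits, merging, joining and the libraries used. Python 3.11.15, numpy 2.4.6, pandas 2.3.3, scipy 1.17.1 and matplotlib 3.10.9 were used. Input libraries themselves were not analysed here. Library numbers 2 and 3 recur in both conditions, and whether they pair the libraries was not settled. Deviations from the condition means had correlations of -0.02 (same number) and 0.02 (other number). With 2 libraries per condition these are 1 value with its sign turned, so they cannot decide it.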

Additional observations from a re-analysis of the deposited data

How the results depend on the processing

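Of 73 alternative values, 46 stayed within the limits set for them. That count includes the values with the replicate number as a block, which could not differ from the original ones. The ratio of lactate to control bases, 0.497, was 0.459 with peaks at −log10 q of at least 5, 0.480 with a width limit of 3000 bp, 0.516 with 1500 bp, 0.481 with more than 1 control peak allowed, and 0.913 under the mirrored rule on lactate widths. Leaving out each library in turn gave 0.455 to 0.507. The percent of domains with a peak in both lactate libraries was 84.3, 97.5 and 88.0 under the q threshold and the 3000 and 1500 bp limits, and 89.3 with peaks within 1 kb joined. Without control 2 or control 3 it was 89.3 and 88.7, in regions chosen on the other control library alone. Without lactate 2 or lactate 3, the percent with a peak in the 1 lactate library left was 96.9 and 94.0. Peaks per domain in lactate, 1.56, were 1.39, 2.08 and 1.27 under those 3 settings, 1.66 with no end limit, 1.25 with joining and 1.74 with more control peaks. The number of domains was 119 at 3000 bp, 1133 at 1500 bp, 1361 with no end limit and 1704 with joining. It was 863 without control 2, 943 without control 3 and 452 to 943 over all libraries left out.

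The interior minus outer log2 difference turned from 0.02 to -0.055 with joined peaks, and the cause was not tested. With the replicate number as a block it was 0.02, and the background difference, an analysis added after the data were seen, was 1.08. With 2 libraries per condition, both equal the values without a block by construction, so they are no separate check. Background without each library ran from 0.96 to 1.2 on the log2 scale.

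Peak width depends on the caller's threshold, on depth and on the background from 1 input a condition, so a narrower peak is not a measured loss of the mark. Reads outside called peaks were not analysed here.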
